A study of Homo sapiens with 4 samples.

Results

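The E2F and DP transcription factors were examined in 4 RNA-seq libraries of LNCaP, an androgen-responsive human prostate cancer cell line. All 10 genes chosen by name, E2F1 to E2F8 and the partner genes TFDP1 and TFDP2, were listed among the 19801 genes of each library. Cells were transfected for 24 h with an empty vector or with the AR1-651 plasmid, and then kept for 12 h with or without AIL (ailanthone, a quassinoid natural product). Each of the 4 combinations of plasmid and AIL was a group of 1 library, and all shared the parental line, the growth medium with 10% FBS and a transfection. No difference between groups has a replicate check, so no p-value is given.

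E2F proteins bind DNA at the promoters of genes for DNA replication and cell-cycle entry, in most cases as a dimer with a DP protein. E2F1, E2F2 and E2F3 are classed as activators, E2F4 and E2F5 as repressors that act with the RB-related pocket proteins, and E2F6 as a repressor that works in a Polycomb complex without a pocket protein. E2F7 and E2F8 are atypical: they carry a pair of DNA-binding domains, need no DP partner and repress many of the genes that the activators switch on. Several E2F genes are themselves E2F targets.

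Levels are given as RPKM, reads per kilobase of exon, scaled to mapped reads, in the order empty vector without and with AIL, then AR1-651 without and with AIL. A change is a difference of log2(RPKM + 1), a scale that understates the change of low genes, and a gene is called higher or lower when it differs at least 2-fold on it. The background is the 14626 genes that reached 1 RPKM in any library. Of the 10 members 9 are in it, and E2F2 is not. E2F7 and E2F8 are in it only through libraries with AIL, so that a change with AIL was favoured by the filter. Low RPKM values fall on steps of 1 read, which put the depth of the 4 libraries at about 5100000, 4810000, 5540000 and 5750000 reads or read pairs. From that depth and the mean length of its listed transcripts, the reads behind each member were estimated, and the 95% intervals below (exact Poisson for a level, exact binomial for a ratio of 2 levels) cover counting error only.

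KLK3, the androgen-induced gene for PSA, was at 287, 303, 1442 and 582 RPKM and was higher in the libraries labelled AR1-651. KLK3 is no check of the construct itself, and every direction drawn below from those libraries rests on their labels. All 9 markers of LNCaP cells were at 1 RPKM or more in each library. Of 3 markers each of stroma and leukocytes, the summed levels ranged from 2.36 to 5.52 and from 8.67 to 12.7 RPKM, mostly COL1A1 and CD68, while PTPRC, the defining leukocyte marker, stayed under 1. Markers of basal epithelium and endothelium summed to at most 0.72 RPKM, with 1 and 2 of 3 found. The share of ribosomal protein genes in the summed RPKM was 32.9% in the library labelled AR1-651 and 22.2 to 25.4% in the other 3. Longer transcripts had lower values in AR1-651 relative to empty vector (Spearman rho = -0.42 across 14005 genes), and GC-rich transcripts had lower values in AR1-651 + AIL relative to AR1-651 (rho = -0.41). The GC trend was strongest in AR1-651 + AIL relative to empty vector + AIL (rho = -0.61). Genes are not independent replicates, and these trends are given as a description. Their part in the results below was not tested beyond the values after their removal.

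Promoters are shown for the members with more than 1 match to an E2F core motif, because E2F genes are known targets of the family. RefSeq windows on GRCh38.p14 from 250 bases before to 50 bases after each start were available for 8 of the 10 members, all but E2F5 and E2F8. They were searched on both strands for the core TTCCCGC and for its variants with other middle letters, namely TTGGCGC and also TTCGCGC and also TTGCCGC. Overlapping matches were allowed, and none occurred in a member. E2F1, E2F3 and E2F7 had 2 matches each, E2F2, E2F6 and TFDP1 had 1, and E2F4 and TFDP2 had none in any window. Counted per gene, 6 of the 8 members had a match and 3 had 2 in a window, beside 15.3% and 2.16% (2 or more) of 27305 genes. Of all 35116 windows 13% held a match and 1.77% held 2 or more, and of the 11 member windows 6 and 3 did. The match in E2F6 lay after its start. The lines below give the stretch before the start around the matches of 3 members, 5′ to 3′ on the strand of the gene, with each match in capitals. They lie on the minus strand at chr20:33686386-33686438 (E2F1), on the plus strand at chr6:20401806-20401878 (E2F3) and on the minus strand at chr12:77065676-77065765 (E2F7).
E2F1: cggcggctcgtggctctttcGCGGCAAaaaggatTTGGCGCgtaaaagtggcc
E2F3: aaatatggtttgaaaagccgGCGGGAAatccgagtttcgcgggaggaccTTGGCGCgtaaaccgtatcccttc
E2F7: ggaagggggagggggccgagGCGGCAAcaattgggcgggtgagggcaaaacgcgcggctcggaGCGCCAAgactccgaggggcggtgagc
In E2F1 the matches began 33 and 19 bases before the start, in E2F3 53 and 24 bases and in E2F7 176 and 133 bases. A match printed with GC at its 5′ end is a searched motif read on the other strand. E2F1 and E2F7, which both hold a pair of matches, moved in opposite directions with AIL, and E2F3 stayed close to its level, as described next. A match is a description of these letters and not a measured site.

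AIL was accompanied by a lower E2F1 level and by higher E2F4, E2F5 and E2F7 levels in cells with empty vector and in cells with AR1-651. These comparisons share no library. The place of each change among all genes in the background is given as a percentile, the percentage of genes with a lower change. E2F1 lay at percentile 21.6 with empty vector and 7.6 with AR1-651, and E2F4 at 82.6 and 83.0. For E2F5 the percentiles were 95.7 and 78.8, and for E2F7 92.5 and 93.6. With empty vector, 2 of the 9 members were called higher (E2F5 and E2F7) and none lower, where 9.53% of all genes in the background were called higher and 9.03% lower. In cells with AR1-651, 1 member was called higher (E2F7) and none lower, against 14.9% of all genes higher and 5.74% lower. E2F7 passed the filter only through libraries with AIL, which favoured its calls and its high percentiles, so they lend no support to a change. E2F8 entered the 9 members in the same way. Apart from E2F7, only E2F5 was called, and only with empty vector. The median change of the members was -0.03 with empty vector and 0.32 with AR1-651, beside -0.02 and 0.13 over all genes. In a bulk library, fewer cells that carry a message and less of it per cell cannot be told apart.

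**Figure D1:**
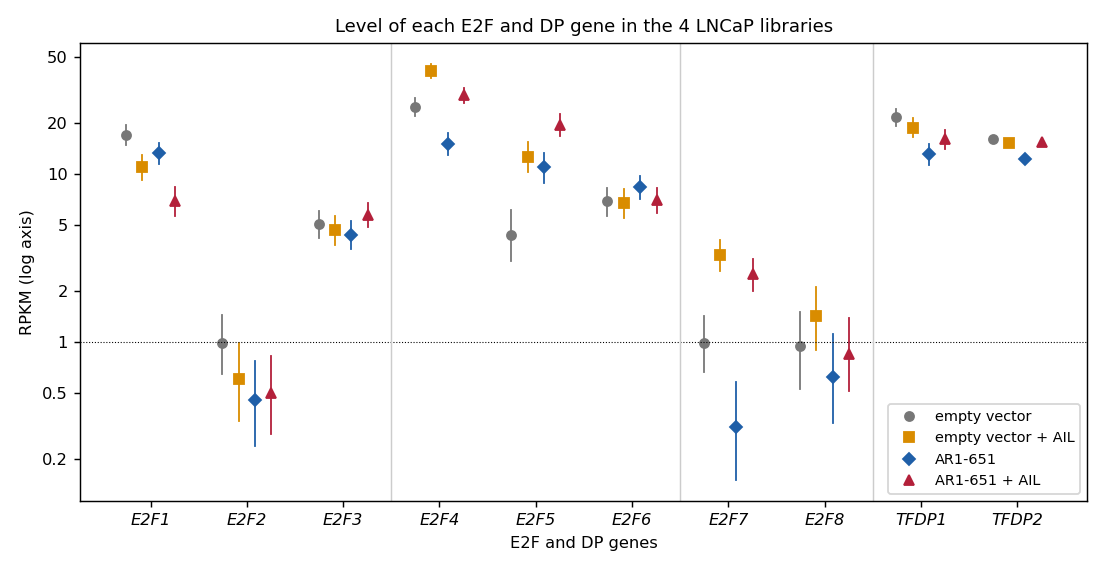
RPKM of the 10 genes (log axis) in the 4 libraries, 1 point per library, with bars for the 95% counting interval (none for TFDP2, whose transcripts differ too much in length) and a dotted line at 1 RPKM. E2F4 is the highest member in each library, the E2F7 points with AIL (3.29 and 2.53 RPKM) stand above both points without it (0.98 and 0.31), and the E2F6 and E2F3 points lie close together.

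Among the activators, E2F1, the best known driver of S-phase entry, was at 17.1, 10.9, 13.3 and 6.86 RPKM, from an estimated 218, 132, 184 and 99 reads. Both libraries with AIL were lower than both without. The level with AIL was 0.641 times that without it in cells with empty vector (counting interval 0.514 to 0.801) and 0.516 times in cells with AR1-651 (0.402 to 0.666). On the log scale these were changes of -0.60 and -0.86, which are not called. E2F1 was the only member called lower with median-ratio scaling, at -1.07 in cells with AR1-651. Its transcript is the richest in GC of the 10, at 62.5% against a median of 49.6%, and after removal of the length and GC trends its changes with AIL were -0.55 and -0.74.

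E2F2, an activator close to E2F1, was at 0.99, 0.60, 0.45 and 0.50 RPKM, from 26, 15, 13 and 15 reads. Its ratios with AIL, 0.606 (0.301 to 1.2) and 1.11 (0.494 to 2.54), were not distinguishable from 1 at this depth. E2F3, another activator of S-phase genes, was at 5.03, 4.64, 4.33 and 5.69 RPKM. These levels span a narrow range, and the ratio with AIL was 0.922 (0.697 to 1.21) with empty vector and 1.31 (1.02 to 1.70) with AR1-651.

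Of the pocket-protein-dependent repressors, E2F4, the main E2F of resting cells, was the highest member in every library, at 25.2, 41.3, 15.1 and 29.4 RPKM. With AIL it was 1.64 times higher in cells with empty vector (1.40 to 1.92, from 269 and 416 reads) and 1.95 times in cells with AR1-651 (1.63 to 2.36, from 175 and 355 reads). The log2 changes were 0.69 and 0.92, and the second reached 1.00 after removal of the trends. The GC content of its transcript is 58.1%. The level of E2F4 over that of E2F1 within a library, which no scaling between libraries can alter, was 1.48 (1.23 to 1.77) with empty vector and 1.13 (0.918 to 1.40) with AR1-651. With AIL it was 3.78 (3.09 to 4.61) and 4.29 (3.42 to 5.41). The intervals with AIL lay above both intervals without it. This pair was outside the plan and joins a member that was higher with AIL and a member that was lower. The separation is therefore no independent check of either change.

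E2F5, the other repressor of this kind, was at 4.31, 12.7, 10.9 and 19.6 RPKM, from an estimated 35, 96, 95 and 177 reads, lowest with empty vector alone and highest with AR1-651 + AIL. The ratio with AIL was 2.94 (1.96 to 4.42) in cells with empty vector and 1.79 (1.39 to 2.33) in cells with AR1-651, for log2 changes of 1.36 and 0.79. After removal of the trends the second was 0.30. These values carry a limit of annotation. In GENCODE release 29, 2 of the 3 listed E2F5 transcripts overlap exons of RBIS, a ribosome biogenesis gene on the opposite strand, by up to 443 of 1890 bases, and whether strand was used in counting is not given in the sources used here. RBIS was at 36.1, 63.6, 91.3 and 101 RPKM, lowest and highest in the same libraries as E2F5. E2F5 stood at 11.9%, 19.9%, 12.0% and 19.3% of the RBIS level. The share was nearly equal in the libraries without AIL, and higher in both with it. The part of RBIS reads in the E2F5 values was not tested.

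E2F6, the Polycomb-linked repressor, hardly differed among the libraries, at 6.86, 6.69, 8.33 and 6.99 RPKM from 115, 106, 152 and 132 reads. With AIL its ratio was 0.975 (0.744 to 1.28) with empty vector and 0.839 (0.658 to 1.06) with AR1-651. The counting interval included 1 in all 4 comparisons. After removal of the trends its change from AR1-651 to AR1-651 + AIL was -0.59, the only one of its values with AIL to move past 1.5-fold. Its change in AR1-651 against empty vector, 0.25, was 0.50 after that removal, so its flatness depends on the uncorrected scale.

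The atypical E2F7 was at 0.98, 3.29, 0.31 and 2.53 RPKM, from 29, 91, 10 and 83 reads, and the 2 libraries with AIL were well above the 2 without. In point value this was the largest ratio with AIL of any member: 3.36 (2.17 to 5.25) with empty vector and 8.16 (4.14 to 17.3) with AR1-651. The log2 changes of 1.12 and 1.43 are smaller because 1 was added to low levels. Against E2F1 within a library, E2F7 was at 0.0574 (0.0379 to 0.0857) and 0.0233 (0.0112 to 0.0446) without AIL, and at 0.301 (0.228 to 0.396) and 0.369 (0.270 to 0.494) with it. This pair too joins a higher and a lower member and is no independent check. The trends with length and GC content were not removed from this ratio, and the E2F1 transcript has 2503 bases and 62.5% GC. E2F7 has a long transcript of low GC content, 5740 bases and 43.1%, and after removal of both trends its change from AR1-651 to AR1-651 + AIL was 0.97, just under the call. Leaving out genes under 5 RPKM removed E2F7 from the background altogether.

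E2F8, its closest relative, was at 0.94, 1.43, 0.62 and 0.85 RPKM, from 16, 23, 12 and 17 reads. Its ratios with AIL were 1.52 (0.772 to 3.09) and 1.37 (0.615 to 3.13), and a difference was not detectable at this depth. Up to 7 bases of its transcripts overlap an antisense gene.

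The DP partners, which dimerize with E2F1 to E2F6, were not called in any comparison. TFDP1 was at 21.8, 18.9, 13.2 and 16 RPKM, with ratios with AIL of 0.865 (0.725 to 1.03) and 1.22 (1.00 to 1.48). TFDP2 was at 16.2, 15.3, 12.2 and 15.5 RPKM, with ratios of 0.943 and 1.27, and its read numbers are uncertain because its listed transcripts differ greatly in length. TFDP1 exceeded TFDP2 in all 4 libraries, with 50.8 to 57.4% of their sum.

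**Figure D2:**
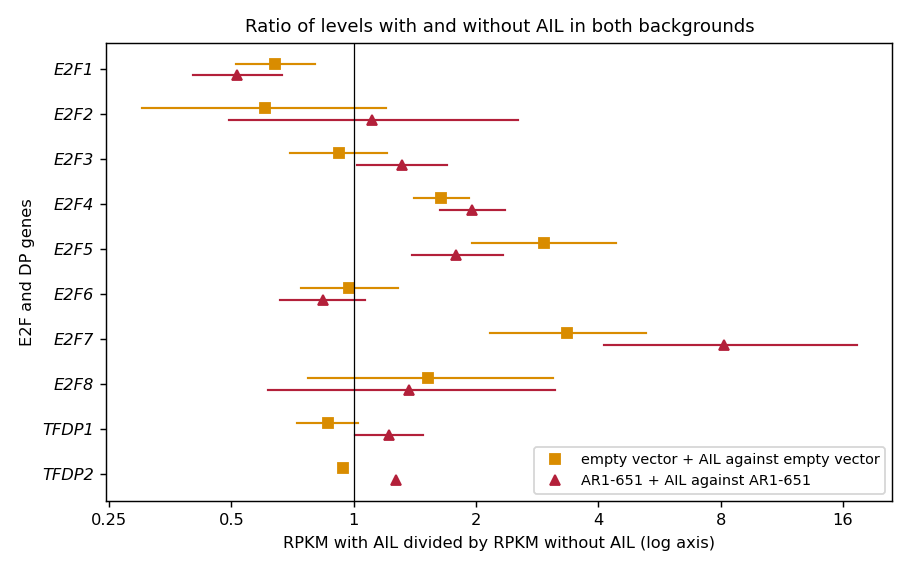
RPKM with AIL divided by RPKM without it (log axis) for each gene with empty vector and with AR1-651, with bars for the 95% counting interval (none for TFDP2) and a line at 1. E2F1 lies below 1 and E2F4, E2F5 and E2F7 above 1 in both backgrounds with intervals that leave out 1, while both intervals of E2F2, E2F6 and E2F8 include it.

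Added up, the E2F messages came to 61.4, 81.5, 53.3 and 72.4 RPKM, more with AIL in both backgrounds. The activators E2F1 to E2F3 made up 37.6% of that sum with empty vector and 33.9% with AR1-651, but 19.8% and 18.0% with AIL. The repressors E2F4 to E2F6 made up 59.3% and 64.4% without AIL and 74.4% and 77.3% with it, and E2F5, with its limit, held 7.02%, 15.5%, 20.5% and 27%. The atypical members held 3.13% and 1.74% without AIL and 5.79% and 4.67% with it. These sums were formed after the values were known. They measure messages, not protein or DNA binding.

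**Figure D3:**
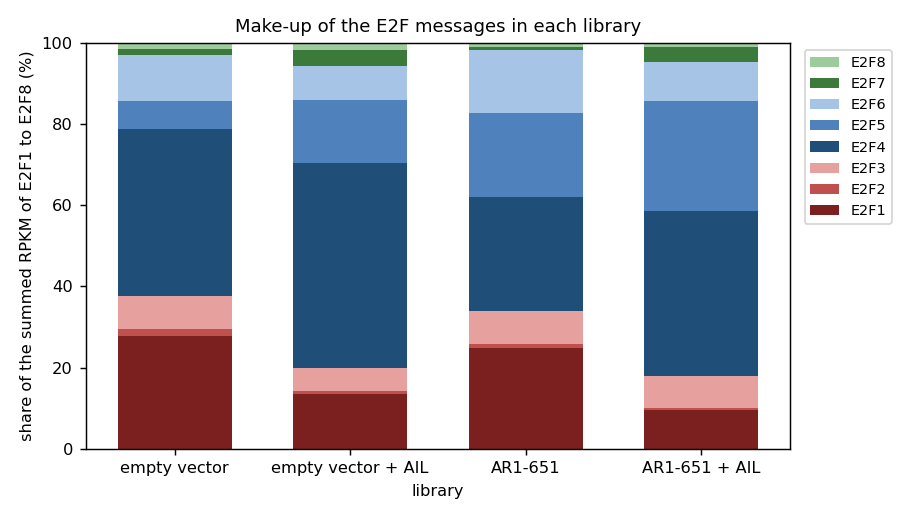
Share of the summed RPKM of E2F1 to E2F8 (percent) held by each gene in each of the 4 libraries, with activators in red, repressors in blue and atypical members in green. The red part is 19.8% and 18.0% of the sum with AIL against 37.6% and 33.9% without it.

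The comparison of AR1-651 with empty vector asks what the construct changes without AIL. In it 1 of the 9 members, E2F5, was called higher and none lower, where 4.01% of all genes were called higher and 11.6% lower. The median change of the members was -0.34, beside -0.30 over all genes. E2F5 was 2.54 times higher (1.68 to 3.80, log2 change 1.17), with RBIS 1.31 higher on the log2 scale. E2F4 was 0.598 times its level with empty vector (0.492 to 0.727) and TFDP1 0.604 times (0.50 to 0.725). Their log2 changes of -0.71 and -0.69 remained at -0.50 and -0.56 after removal of the trends. E2F1 was 0.779 times (0.635 to 0.950), but its change of -0.34 became 0.08 once the trends were removed. TFDP2 was 0.754 times, and its change of -0.38 became 0.03. E2F2, outside the background, was 0.455 times (0.217 to 0.929), on 13 reads against 26. E2F7 was 0.316 times (0.138 to 0.670), on only 10 reads in the library labelled AR1-651. Its log2 change of -0.60 became -1.40 with a pseudocount of 0.1 and -0.06 after removal of the trends.

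With AIL in both libraries, no member was called either way between AR1-651 and empty vector, where 1.46% of all genes were called higher and 3.53% lower. Again E2F5 was higher, 1.55 times (1.2 to 2.0). E2F4 was 0.713 times (0.618 to 0.824) and E2F1 0.628 times (0.479 to 0.820), and after removal of the trends these changes were 0.24, -0.19 and -0.12. The ratios of E2F2, E2F3, E2F6, E2F7, E2F8 and TFDP1 had counting intervals that included 1. This comparison shares a library with each of the comparisons with AIL above, and the comparison without AIL does so too.

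The genes that govern E2F activity were described from lists chosen with earlier results known. The 3 pocket proteins, which bind and mask E2F, were all measured and none was called with AIL. RB1, the retinoblastoma gene, was at 7.02, 4.18, 2.81 and 4.73 RPKM, RBL1 (p107) at 3.52, 2.84, 1.71 and 3.41 and RBL2 (p130) at 20.8, 18.5, 14.9 and 18.4. All 3 were lowest in the library labelled AR1-651. Only RB1 was called lower there, at -1.07, where 11.6% of all genes were called lower and the median of all genes was -0.30. The RB1 change was -0.49 after removal of the trends and -0.86 with median-ratio scaling. With AIL all 3 were lower with empty vector and higher with AR1-651. The changes were -0.63 and 0.59 for RB1, -0.24 and 0.70 for RBL1 and -0.16 and 0.29 for RBL2. The RB1 difference between backgrounds was 1.22, past 2-fold, beside a median of 0.14 over all genes, and was not tested. With median-ratio scaling the RB1 changes with AIL were -0.63 with empty vector and 0.42 with AR1-651. The difference draws on the library labelled AR1-651, where the fall of RB1 shrank after removal of the trends, as given above.

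Among the kinases and cyclins that inactivate RB, 7 of 9 were in the background, and CCND2 and CDK6 were below it. CDK4 was at 61.2, 39.9, 77.0 and 39.8 RPKM, lower in both libraries with AIL (log2 changes -0.60 and -0.94, the second -1.15 with median-ratio scaling). CCND1, its cyclin partner, was at 105, 82.2, 105 and 64.5. CDC25A, a phosphatase that activates CDK2, was at 3.20, 8.36, 4.45 and 9.26, with changes with AIL of 1.16, which is called, with empty vector and 0.91 with AR1-651 (1.04 with a pseudocount of 0.1). The difference between those changes was not tested.

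CDK inhibitors, which keep RB active, were all 7 in the background. With AIL 2 were called higher in each background and none lower, where 9.53% of all genes were called higher with empty vector and 14.9% with AR1-651. CDKN1A (p21) was at 155, 551, 132 and 361 RPKM, with log2 changes of 1.83 and 1.44. CDKN2B (p15) was at 2.14, 8.02, 1.24 and 8.69, with changes of 1.52 and 2.11. CDKN1B (p27) was at 41.0, 80.3, 48.7 and 84.2, short of the call at 0.95 and 0.78. CDKN2C (p18) lay on the other side, at 17.6, 9.46, 19.7 and 12.3 RPKM. The median change of the list was 0.93 with empty vector and 0.33 with AR1-651.

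The MuvB core binds E2F4 or E2F5, a DP protein and p130 or p107 in the DREAM repressor complex of resting cells, and binds MYBL2 and FOXM1 in cells that approach mitosis. Of 9 measured genes of this group, 2 were called higher and 1 lower with AIL in cells with empty vector, and 3 higher and none lower in cells with AR1-651. Over all genes the shares were 9.53% higher and 9.03% lower with empty vector, and 14.9% and 5.74% with AR1-651. LIN37, needed for repression by DREAM, was at 10.5, 29.8, 9.94 and 23.6 RPKM, with changes of 1.42 and 1.17 (the second 0.97 with median-ratio scaling). LIN9 was at 2.71, 7.35, 4.95 and 12.96, with changes of 1.17 and 1.23, the second of which was 0.43 after removal of the trends. LIN54, the DNA-binding subunit, changed by 1.04 in cells with AR1-651 and by 0.40 after that removal. FOXM1, the mitotic activator, was at 20.1, 7.71, 8.19 and 3.87 RPKM. It was called lower with AIL in cells with empty vector (-1.28) and in AR1-651 against empty vector (-1.2, but -0.80 after removal of the trends and -0.95 with median-ratio scaling). Its change from AR1-651 to AR1-651 + AIL was -0.92, but -1.06 with a pseudocount of 0.1 and -1.11 with median-ratio scaling.

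The 12 partners of E2F6 in the Polycomb complex PRC1.6 were all in the background, and the same 4 were called higher with AIL in each background, with none lower, beside 9.53% and 14.9% of all genes called higher. RYBP, a core subunit, was at 14.8, 56.6, 16.3 and 88.3 RPKM, with changes of 1.86 and 2.37. RNF2, the ubiquitin ligase RING1B, was at 4.07, 16.1, 6.27 and 23.7, with 1.75 and 1.76. PCGF6, the subunit that defines PRC1.6, was at 3.06, 10.5, 2.89 and 8.92, with 1.5 and 1.35. YAF2, the paralog of RYBP, was at 2.90, 7.27, 2.69 and 9.62, with 1.08 and 1.53. The E2F6 level itself, given above, stayed between 6.69 and 8.33 RPKM. After removal of the trends the changes in cells with AR1-651 were 1.71 for RYBP, 0.99 for RNF2, 0.77 for PCGF6 and 0.69 for YAF2, so that only RYBP kept its call there. Relative to empty vector, MGA (-1.07), the scaffold of the complex, and WDR5 (-1.03) were called lower with AR1-651, as were 11.6% of all genes, and neither was after removal of the trends (-0.40 and -0.65) or with median-ratio scaling (-0.89 and -0.78).

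Germline genes silenced by E2F6 were mostly silent. Of 9 such genes 8 were found and 2 reached 1 RPKM in any library. SYCP3, of the meiotic synaptonemal complex, was at 7.85, 5.27, 9.84 and 6.52 RPKM, with no call. Its change from AR1-651 to AR1-651 + AIL, -0.53, was -1.24 after removal of the trends, past the call. TUBA3D, a tubulin gene outside the rule for named genes and picked after its values were seen, was at 0.87, 0.50, 3.53 and 0.60 RPKM and changed by 1.28 with AR1-651 and by -1.5 with AIL after it. It passed the filter only through the library labelled AR1-651, which favoured both of these calls.

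Of 30 genes that E2F activates at the start of S phase, all in the background, 1 was called higher and 1 lower with AIL in cells with empty vector, where 9.53% of all genes were called higher and 9.03% lower. In cells with AR1-651 1 was called lower and none higher, where 14.9% of all genes were called higher and 5.74% lower. Their median changes were 0.00 and 0.13, beside -0.02 and 0.13 over all genes. CDC25A was the gene called higher. UHRF1, a reader of methylated DNA, was the gene called lower, at 5.62, 2.08, 2.27 and 1.49 RPKM (-1.10, and -0.95 after removal of the trends). FEN1, the flap endonuclease of DNA replication, was at 21.2, 11.5, 25.3 and 11.7 RPKM with changes with AIL of -0.83 with empty vector and -1.05, which is called lower, with AR1-651. The difference between these changes was not tested. CDC6, which loads the replicative helicase, was at 8.63, 9.79, 17.3 and 8.98, highest in the library labelled AR1-651. Its change of 0.93 with AR1-651 was 1.18 with median-ratio scaling and 1.09 after removal of the trends, and its change of -0.88 with AIL in those cells was -1.08 and -1.24, past the call in each case. TK1, thymidine kinase, was at 74.5, 53.7, 54.3 and 40.1. EZH2, the Polycomb methyltransferase, was at 11.3, 19.9, 12.8 and 24.1. With AR1-651 against empty vector 1 of the 30 was called lower and none higher, where 11.6% of all genes were called lower and 4.01% higher. The gene called lower was UHRF1, at -1.02, but -0.54 after removal of the trends and -0.82 with median-ratio scaling. With AIL in both libraries none of the 30 was called, where 1.46% of all genes were called higher and 3.53% lower.

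Of the genes for E2F protein turnover, CCNF, SKP2 and FZR1, none was called in any comparison. SKP2, itself a known E2F target, was at 11.6, 8.78, 5.44 and 6.88 RPKM. Its change with AR1-651, -0.97, was -1.08 with a pseudocount of 0.1 and -1.12 without ribosomal protein genes, and that of CCNF, -0.88, was -1.02 and -1.03, so that both were called lower under these alternatives.

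**Figure D4:**
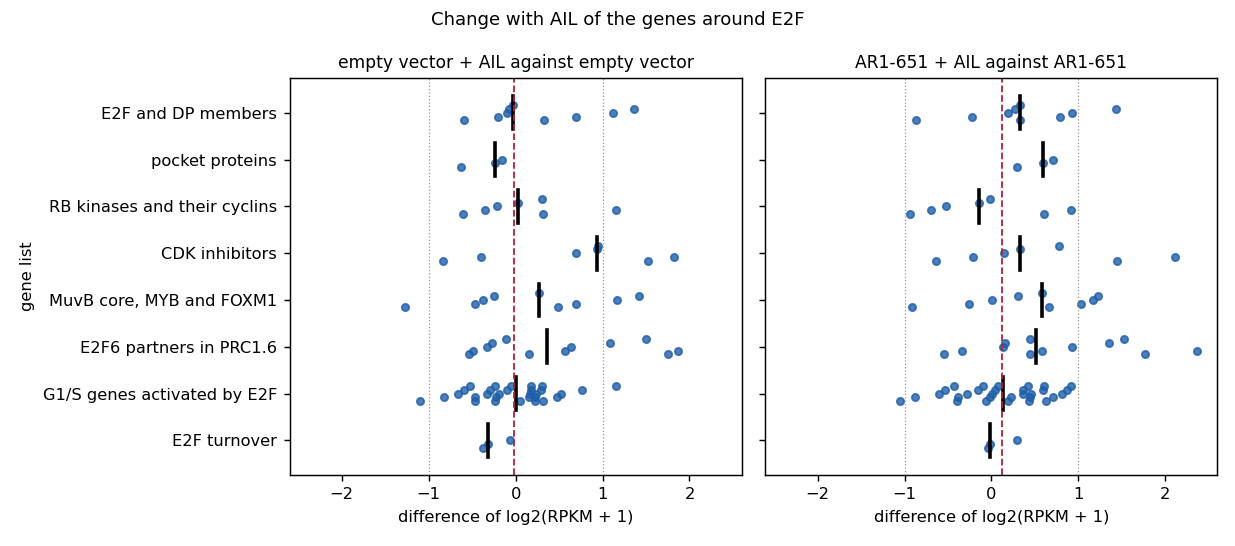
Change with AIL (difference of log2(RPKM + 1)) of each gene in the background, by list, with empty vector (left) and with AR1-651 (right); black bars mark list medians, the dashed line the median of all genes and dotted lines the 2-fold calls. G1/S genes centre on the line of all genes (medians 0.00 and 0.13), and 4 of the 12 PRC1.6 genes lie past the upper call in each panel.

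The genes most like E2F1 over the 4 libraries were CDIPT, TTLL12, RANGAP1, SLC25A39 and UNC45A, by the root mean square difference of centred log2(RPKM + 1), which was 0.0177 for CDIPT and 0.0407 for UNC45A. CDIPT was at 104, 67.6, 81.3 and 45.6 RPKM, in the same order as E2F1. Of 7496 genes that had 5 RPKM or more in every library, 65 came within 0.1. For E2F6 the nearest were METTL27, COX5B, ECH1, MACROH2A2 and GSTM3, and 220 of the 7496 came within 0.1. A likeness over 4 libraries is a description.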

How the data were processed

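Per the labels, RNA of 4 cultures of LNCaP cells was sequenced on the Illumina platform. Their library protocol names a stranded kit with ribosomal RNA removal and also oligo(dT) selection. The authors deposited RPKM per gene, rounded to 2 decimals, with Entrez and RefSeq identifiers. The submitters' processing notes name BWA 0.7.10-r789 and hg19. The counting tool and its use of strand are not given in the sources used here.

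Symbols came from a RefSeq gene table (19703 of 19801 genes). Transcript lengths, GC content and overlaps came from GENCODE release 29 on GRCh38, and promoters from RefSeq on GRCh38.p14. These coordinates were not mixed with those of the files. A protein comparison was planned and not made, and 1 gene of the rule for named genes is not reported here. The analysis used a pseudocount of 1, a minimum of 1 RPKM in at least 1 library and a 2-fold call. The change with AIL was also compared between backgrounds as a difference of changes. Depth came from the spacing of low values of genes with 1 transcript of 700 to 3000 bases: 65.6 to 69.5% of 1086 to 1258 values per library were within 0.15 of a whole read, where 30% would be if evenly spread. This was not complete enough to recover reads for a count test, and intervals cover counting error only. Copies of members could share reads: 7 pseudogenes of E2F3, E2F4 and E2F6 are annotated.

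All 10 members are named. Of each other list, up to 4 genes per comparison could be named, those with the largest change among genes that had 1 RPKM or more in every library, and 5 genes most like E2F1 and E2F6. CCND2, CDK6 and TUBA3D fall outside that rule. Lists share some genes. The members and lists were chosen with earlier results of these data known.

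Alternatives were a pseudocount of 0.1, median-ratio scaling, ribosomal protein genes left out, no filter, RPKM of at least 5, a 1.5-fold call, and changes corrected for their trends with transcript length and GC percent. The calculations were tested on simulated data. Python 3.11.15, NumPy 2.4.6, SciPy 1.17.1, pandas 2.3.3 and matplotlib 3.10.9 were used.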

Additional observations from a re-analysis of the deposited data

Results flagged for a closer look

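For 4 members the change with AIL had opposite signs in cells with empty vector and in cells with AR1-651, and with 1 library per group this difference was not tested. TFDP1 changed by -0.20 with empty vector and by 0.27 with AR1-651, a difference of 0.47. For E2F3 the changes were -0.10 and 0.33, a difference of 0.42. TFDP2 changed by -0.08 and 0.32, a difference of 0.40. E2F2 changed by -0.31 and 0.05, a difference of 0.36, on 13 to 26 reads per library. None of these changes reached 2-fold, and after removal of the trends with length and GC content the changes with AR1-651 were -0.01 for TFDP1, -0.03 for E2F3 and -0.01 for TFDP2.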

How the results depend on the processing

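All 7 alternatives were run. No paired analysis was possible because each group has 1 library, and for the same reason no library could be left out. Members called lower went from none to 1 in AR1-651 against empty vector with a pseudocount of 0.1 (E2F7) and to 1 from AR1-651 to AR1-651 + AIL with median-ratio scaling (E2F1). Of all genes 20.8% and 8.62% were called lower in these cases. With RPKM of at least 5, members called higher with AIL fell to 1 with empty vector and to 0 with AR1-651, since E2F7 then left the background. The shares of all genes called higher were then 11.4% and 17.5%. At 1.5-fold, 3 members were lower with AR1-651, where 32.3% of all genes were. With AIL 1 was lower and 3 were higher in each background. Of all genes 22.1% were lower and 20.9% higher with empty vector, and 14.7% lower and 28.6% higher with AR1-651. Between the libraries with AIL 1 member was higher and 1 lower, beside 7.73% and 15.5% of all genes. After removal of the trends the count of 1 from AR1-651 to AR1-651 + AIL came from E2F4 in place of E2F7. In that case 8.3% of all genes were called higher. No value changed sign past its call. Of 1352 values of single genes 1330 moved by less than 1.5-fold and 22 moved further. The 1330 include the values with no filter and with RPKM of at least 5, which could not move. Those settings change only the background. A move of less than 1.5-fold can still change a call, as it did for several genes above. The higher share of all calls depended on scaling: for AR1-651 against empty vector it was 25.6%, 13.2% without ribosomal protein genes, 56.6% with median ratios and 55.7% once the trends were removed. From AR1-651 to AR1-651 + AIL it was 72.2%, and 55.6% with median ratios and 52.5% once the trends were removed, and with AIL in both libraries 29.3% and, after removal of the trends, 46.6%. The median change of all genes with AR1-651, -0.30, was -0.09 with median-ratio scaling. The cause was not tested. Depth limits E2F2 and E2F8, at 12 to 26 reads per library, and E2F7, at 10 reads with AR1-651.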
